A study of Homo sapiens with 6 samples.

Results

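To describe chromatin accessibility at genes that set cell survival, 10 members of the BCL2 family were examined in MM cells. They were BCL2, BCL2L1, MCL1 and BCL2A1, which protect cells, BCL2L11, BBC3, PMAIP1 and BMF, which promote death, and the effectors BAX and BAK1. The genes were taken from a list of names that sets no threshold on a measured value, as 10 of the 20033 protein-coding genes of GENCODE release 44. For each, the promoter was taken as 1000 bp on each side of every annotated transcription start site (TSS), and the locus as the gene body with 50 kb on each side. Peaks sharing 1 bp or more across the 6 libraries were joined, which gave 89196 open chromatin regions, and 130 of these lay in the 10 loci.

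The proteins of this family meet at the outer membrane of mitochondria. BAX and BAK1 open pores in that membrane once activated, the protective members bind and hold BAX, BAK1 and their activators, and the BH3-only members (BCL2L11, also called BIM, BBC3, also called PUMA, PMAIP1, also called NOXA, and BMF) occupy the protective members or activate the effectors. Plasma cells and myeloma cells are known for their dependence on MCL1, and in part on BCL2 or BCL2L1 (BCL-XL).

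The libraries were Omni-ATAC, which marks open chromatin by insertion of a transposase, from MM.1S, an established human myeloma cell line. Of the 6 libraries, 3 came from cells given CB-6644 at 120 nM for 72 h and 3 from cells given DMSO, the vehicle. CB-6644 is an inhibitor of the paired ATPases RUVBL1 and RUVBL2, which several chromatin remodelling complexes share. Live cells had been isolated by flow sorting before tagmentation, so cells that had died under treatment were not measured, and 1 cell line at 1 dose and 1 time limits what the groups stand for. The labels do not say whether replicates were separate cultures, so p-values measure the spread between these libraries, which may be technical.

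The lists held 58563 to 71781 peaks in the CB-6644 group and 65569 to 79020 in the DMSO group. Read totals were not in the lists, and the background recovered from them, 3.20 to 7.05 tags per kb with CB-6644 and 6.40 to 9.08 with DMSO, stood in for depth. CB-6644 replicate 2 and DMSO replicate 1 stood apart from the other 4 libraries by short minimum peak lengths of 65 and 91 bp against 131 to 152 bp, and are called short-fragment libraries below. Each group held 1 of them, so fragment class could be entered as a covariate or the 4 long-fragment libraries fitted alone. Promoters of all 8 plasma cell markers examined (IRF4, PRDM1, XBP1, SDC1, TNFRSF17, CD38, SLAMF7 and MZB1) had a peak in every library. Promoters of the T cell genes CD3E and CD3D and the myeloid genes CSF1R and LYZ had none in any, whereas the B cell genes PAX5 and CIITA and the epithelial gene EPCAM were open in all 6.

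To determine whether the promoters were open, peaks within 1000 bp of any TSS of a gene were counted in each library. A promoter peak was present in all 6 libraries for 9 of the 10 genes, and 66.5% of all protein-coding genes had one. The exception was BCL2A1, with a promoter peak in 1 of 3 CB-6644 libraries and in all 3 DMSO libraries. To set the strength of a region side by side between libraries, its -log10 p (the peak caller's score against the local background) was turned into a percentile among the 42089 regions called in all 6 libraries. The strongest promoter regions of the other 9 genes stood between percentiles 58.8 and 99.0 in every library. Within this range BCL2L1 was at the top in 6 of 6 libraries, while BBC3 was lowest in 5 of them and MCL1 in DMSO replicate 1.

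**Figure D1:**
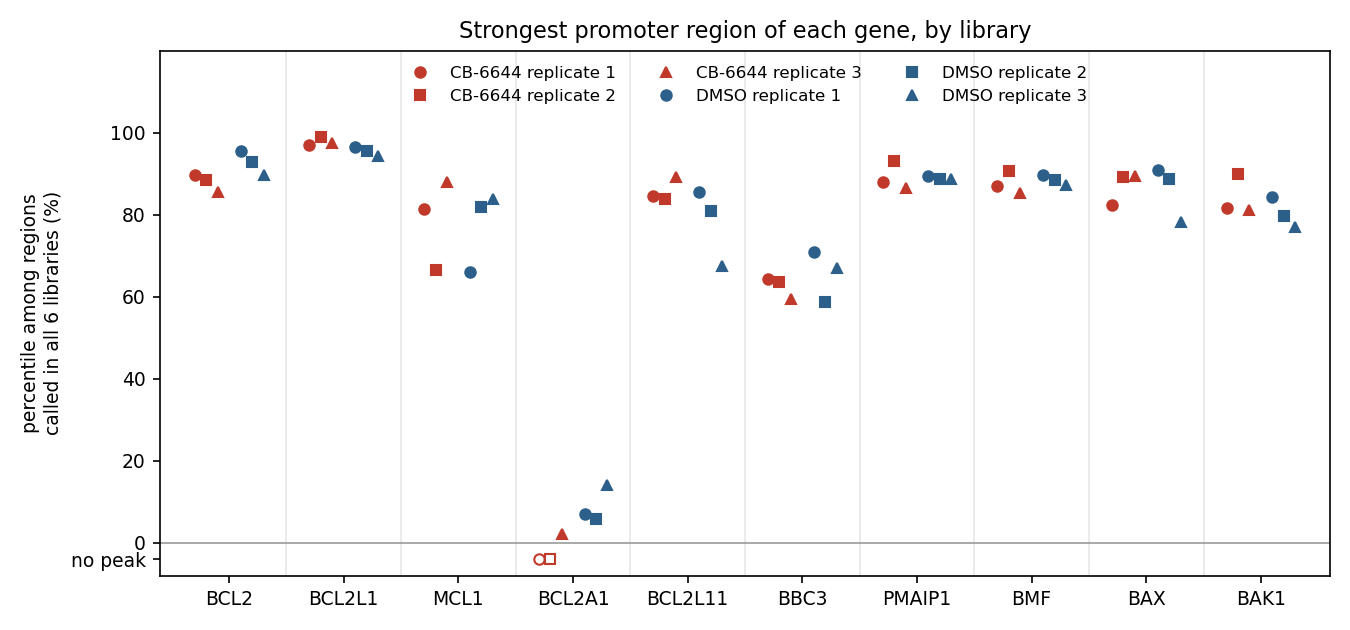
Strength of the strongest promoter region of each gene in each library, as a percentile of -log10 p among the 42089 regions called in all 6 libraries (vertical axis), with CB-6644 libraries in red, DMSO libraries in blue and open symbols for libraries without a peak. In 9 genes all 6 points lie above 58, and only BCL2A1 lies near the bottom, with no peak in 2 CB-6644 libraries.

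Accessibility of the 87 regions of the loci that were called in all 6 libraries was compared with limma on quantile-normalised log2 fold enrichment over background, fitted over all 42089 such regions. No region of the 10 loci passed an adjusted p of 0.05, against 0.321% of all fitted regions that passed as higher with CB-6644 and 0.418% that passed as lower. The lowest adjusted p in the loci was 0.0768, and 7 of the 87 regions (8.05%) had an unadjusted p under 0.05 in limma, against 14.4% of all fitted regions. With fragment class as a covariate, 7 of the 87 regions (8.05%) passed as higher with CB-6644, against 4.22% of all regions, and 2 (2.30%) as lower, against 6.09%. Of these 9, 8 lay outside the promoters of the 10 genes, and the other one was the BCL2L1 promoter. On the percentile scale the groups did not overlap in 10 of the 87 regions with CB-6644 higher (11.5%, against 13.3% of all) and in 13 with DMSO higher (14.9%, against 13.4%). With the covariate the loci thus lay above the background share for higher regions and below it for lower ones, and on the percentile scale both counts were near that share. No p over the list of genes is given, since the genes are not replicates.

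**Figure D2:**
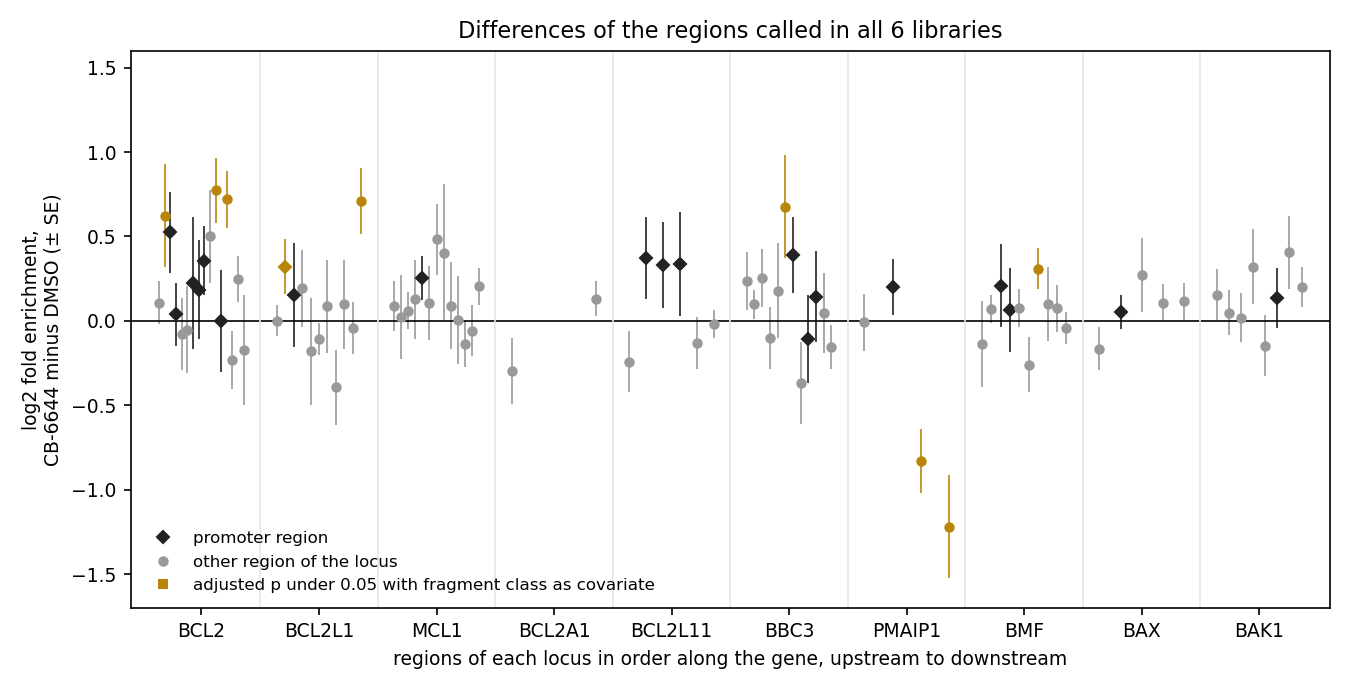
Difference in log2 fold enrichment, CB-6644 minus DMSO, with its standard error (vertical axis) for each of the 87 regions called in all 6 libraries, ordered along each gene. Diamonds are promoter regions, and the 9 regions that passed with fragment class as a covariate are in gold. Promoter regions lie between -0.11 and 0.52, and the lowest 2 points, at -0.83 and -1.22, belong to PMAIP1.

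On fold enrichment, promoter differences leaned to the CB-6644 side without passing the test. The strongest promoter region had a log2 difference above 0 in all 9 fitted genes, with a median of 0.20, and 18 of the 20 fitted promoter regions of the 10 genes were above 0. Promoter regions in general shared this, with a median of 0.08 over 14596 fitted promoter regions, of which 69.4% were above 0, whereas the median over all fitted regions was 0.02. Outside the promoters 42 of 67 fitted regions were above 0. The lean rested in part on CB-6644 replicate 2, without which the values of BCL2, BBC3, BAK1 and BMF were -0.086, -0.11, -0.035 and -0.020. It also rested on the measure. The mean percentile differences of BCL2, BBC3 and BMF were -4.77, -3.17 and -0.826. In limma on -log10 p their differences were -0.33, -0.13 and -0.045. On both measures the other fitted genes were above 0.

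To ask which regions were called in 1 group alone, regions called in every library of one treatment and absent from all lists of the other treatment were counted. In the 10 loci 7 of 130 regions (5.38%) were DMSO-only, against 4.5% of all merged regions, and 1 (0.769%) was CB-6644-only, against 0.586%. A DMSO-only region lay in the locus of 5 of the 10 genes, namely BCL2, BCL2L1, MCL1, BCL2A1 and BCL2L11, against 19.8% of all protein-coding genes. The CB-6644-only region lay in the locus of BAK1, so 1 of 10 genes held one, against 4.29% of all. Both shares of genes were not matched for the number of regions per locus, which ran from 6 in BCL2A1 to 26 in BCL2. Members differ in length, and BCL2, whose locus spans 297 kb, held 3 of the 7. These 8 regions were weak, with percentiles from 0.183 to 35.8 and a median of 2.41, and the medians over all DMSO-only and all CB-6644-only regions were 4.80 and 8.03. The DMSO-only count was 2, beside 1 CB-6644-only region, with lists cut to equal length. In the 4 long-fragment libraries the counts were 9 and 2. With these libraries scaled to equal background and held to a -log10 p of at least 20, which changed scale and threshold at once, the counts were 5 and 5, and of the 7 named DMSO-only regions that of BCL2L11 alone was still called in DMSO libraries only and in both of them. Of the 35 regions that were neither shared by all nor group-only, 17 were called in more DMSO libraries, 9 in more CB-6644 libraries and 9 in as many of each.

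**Figure D3:**
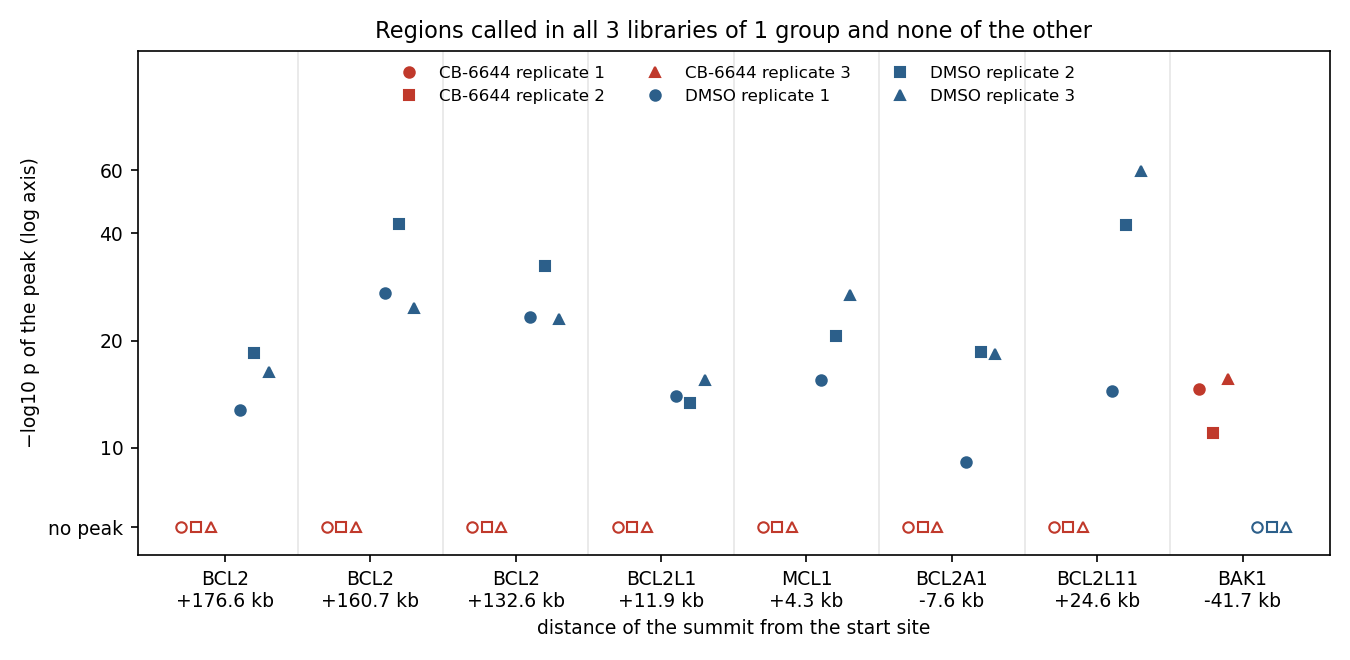
The -log10 p of the peak in each library (vertical axis, log scale) for the 8 regions of the loci found with one treatment alone, with the distance of the summit from the TSS below each. Open symbols mark libraries without a peak. The BCL2L11 region reaches 59.7 in DMSO replicate 3, and no value of the other 7 exceeds 42.5.

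BCL2, the founding protective member, had the largest locus and the most regions, 26, of which 16 were called in all 6 libraries. Its strongest promoter region, at chr18:63317995-63318511 over an exon and UTR, 1.53 kb inside the gene from the canonical TSS, stood at percentiles 89.8, 88.5 and 85.5 in CB-6644 replicates 1 to 3 and at 95.5, 92.9 and 89.7 in DMSO replicates 1 to 3. The groups overlapped at their edge, with percentile means of 87.9 and 92.7, while the log2 difference was 0.04 ± 0.19 (SE, limma adjusted p = 0.937). The promoter region just upstream of the canonical TSS, chr18:63319972-63320511, had its summit 416 bp from that TSS and did not cover it. It stood at 62.0, 66.1 and 62.4 with CB-6644 and at 50.5, 49.8 and 47.9 with DMSO. Here all CB-6644 libraries were above all DMSO libraries, and the log2 difference of 0.52 ± 0.24 did not pass (adjusted p = 0.361, and 0.104 with fragment class as a covariate).

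Further regions of the BCL2 locus had differences on either side of 0. Downstream of the gene, 207 kb from the canonical TSS, the region at chr18:63111981-63112401 stood at percentiles 46.2, 37.1 and 46.6 with CB-6644 and at 6.18, 7.85 and 6.05 with DMSO. The groups were far apart, with a log2 difference of 0.72 ± 0.17, and the adjusted p was 0.0822 without and 0.00841 with fragment class as a covariate, and 0.0212 in the 4 long-fragment libraries. On recovered pile-up over background the difference was 0.36 (adjusted p = 0.145 in limma). An intronic region 178 kb from the TSS, at chr18:63141853-63142310, stood at 17.0, 7.84 and 9.59 with CB-6644 and at 0.526, 2.15 and 1.22 with DMSO, so it too was higher in all CB-6644 libraries. Its log2 difference was 0.77 ± 0.19 (adjusted p = 0.0954 without and 0.0207 with the covariate in limma). The third such region, at chr18:63348596-63349076, lay 29.0 kb upstream inside KDSR, a gene of sphingolipid synthesis, with a log2 difference of 0.62 ± 0.30 (adjusted p = 0.385 without and 0.0230 with the covariate). Its CB-6644 percentiles were 50.7, 16.3 and 51.1 against 1.84, 8.65 and 16.0 with DMSO, so the short-fragment library of the CB-6644 group lay next to the highest DMSO library. Its difference was 0.34 without DMSO replicate 1 and 0.29 on recovered pile-up. All 3 also passed in the long-fragment libraries, and the first 2 without CB-6644 replicate 2. They, like the regions named below for passing in an alternative fit, were singled out after their values were seen. In 1 fitted region of the locus, chr18:63098388-63099031, 221 kb downstream of the TSS, every DMSO library was higher. Percentiles there were 34.5, 22.9 and 19.4 with CB-6644 and 37.1, 44.7 and 51.9 with DMSO. The log2 difference was -0.23 ± 0.17 (limma adjusted p = 0.564).

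The 3 DMSO-only regions of BCL2 were intronic. The region at chr18:63143022-63143263, beside the intronic region named above, had -log10 p values of 12.7, 18.4 and 16.3 in DMSO replicates 1 to 3. At chr18:63158970-63159183, within 1000 bp of an alternative TSS, the values were 27.3, 42.5 and 24.7. The broadest, at chr18:63186566-63187421, had values of 23.3, 32.3 and 22.9. No CB-6644 library had a peak in any of the 3. The 101 bp around the strongest summit are shown for these 3 regions and for the 3 that passed with the covariate. They are set side by side to let their letters be read, with motif matches in capitals.
BCL2 +207.5 kb, called in both groups, chr18:63112222-63112322, + strand: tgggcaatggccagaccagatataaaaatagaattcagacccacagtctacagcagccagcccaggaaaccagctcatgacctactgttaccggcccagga
BCL2 +177.8 kb, called in both groups, chr18:63141950-63142050, + strand: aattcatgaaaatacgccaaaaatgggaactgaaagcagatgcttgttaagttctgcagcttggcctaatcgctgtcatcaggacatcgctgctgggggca
BCL2 -29.0 kb, called in both groups, chr18:63348742-63348842, + strand: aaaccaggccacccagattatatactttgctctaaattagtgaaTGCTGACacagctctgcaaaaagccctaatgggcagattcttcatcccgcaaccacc
BCL2 +176.6 kb, DMSO-only, chr18:63143073-63143173, + strand: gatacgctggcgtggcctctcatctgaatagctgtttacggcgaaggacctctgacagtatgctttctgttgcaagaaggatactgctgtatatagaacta
BCL2 +160.7 kb, DMSO-only, chr18:63158970-63159070, + strand: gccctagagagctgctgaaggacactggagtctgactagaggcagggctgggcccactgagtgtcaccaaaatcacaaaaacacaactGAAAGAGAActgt
BCL2 +132.6 kb, DMSO-only, chr18:63187088-63187188, + strand: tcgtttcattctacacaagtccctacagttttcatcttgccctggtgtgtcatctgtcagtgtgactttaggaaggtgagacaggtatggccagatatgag

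The motifs read on both strands were those of interferon regulatory factors (GAAANNGAA), the ATF4-CEBP composite (TGATGNAA), MAF (TGCTGAC), the E-box (CAGGTG), AP-1 (TGANTCA), NF-kB (GGGNNTTCC) and p53 (a single decamer), and matches may overlap each other. Among the 6 BCL2 windows 2 held a match, which was a MAF motif in the region inside KDSR and an interferon regulatory factor motif in the DMSO-only region at the alternative TSS. Of all 89194 regions read over the same 101 bp, 8.24% hold that motif, 2.08% the ATF4-CEBP composite, 3.26% MAF, 18.2% the E-box, 6.42% AP-1, 2.36% NF-kB and 2.61% the p53 motif. A match is a description of the letters and not a bound site.

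BCL2L1, whose long isoform BCL-XL holds BAX and BAK1 in check, had the strongest promoter of the 10. Its main promoter region, at chr20:31723266-31724032 over an exon and UTR, stood at percentiles 96.9, 99.0 and 97.5 with CB-6644 and at 96.5, 95.6 and 94.3 with DMSO. Among the 9 fitted strongest promoter regions, this was the only one in which the groups did not overlap. The log2 difference was 0.32 ± 0.16, with an adjusted p of 0.410 without and 0.0419 with fragment class as a covariate in limma, and of 0.157 in the long-fragment libraries. The difference was 0.15 without CB-6644 replicate 2 and 0.16 on recovered pile-up over background. A second, weaker region over the canonical TSS, at chr20:31722818-31723049, had a log2 difference of 0.15 ± 0.31.

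Beyond the gene, 69.1 kb downstream of the TSS at chr20:31653656-31654024, percentiles were 12.4, 20.6 and 15.7 with CB-6644 and 2.98, 1.98 and 0.434 with DMSO. Every CB-6644 library was higher there, with a log2 difference of 0.71 ± 0.20 (limma adjusted p = 0.123 without and 0.0241 with the covariate). In 2 intronic regions every DMSO library was higher on the percentile scale. They were chr20:31675783-31676145, with a log2 difference of -0.39 ± 0.22 (limma adjusted p = 0.454), and chr20:31705697-31706103, with -0.18 ± 0.32 (limma adjusted p = 0.814). One DMSO-only region, intronic at chr20:31710868-31711026, had -log10 p values of 14.0, 13.4 and 15.5. Its window holds the ATF4-CEBP composite motif, in capitals below.
BCL2L1 +11.9 kb, DMSO-only, chr20:31710893-31710993, + strand: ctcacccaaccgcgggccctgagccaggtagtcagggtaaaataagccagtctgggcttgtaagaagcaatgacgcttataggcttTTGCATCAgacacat

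MCL1, the short-lived protective protein on which myeloma cells often rely, had an open promoter in both groups. Its promoter region, chr1:150579150-150580053 over an exon and UTR, stood at percentiles 81.4, 66.4 and 87.9 with CB-6644 and at 66.0, 81.8 and 83.9 with DMSO. The groups overlapped, both short-fragment libraries were lowest, and the log2 difference was 0.25 ± 0.13 (limma adjusted p = 0.415, and 0.151 with fragment class as a covariate). Of 15 regions in the locus 13 were called in all 6 libraries, with log2 differences from -0.14 to 0.48, and none passed with or without the covariate. The DMSO-only region, chr1:150575233-150575388 over an exon and UTR 4.32 kb inside the gene and within 1000 bp of an alternative TSS, had -log10 p values of 15.5, 20.6 and 26.8 in DMSO replicates 1 to 3.

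BCL2A1, also called BFL1 or A1, a protective member known as an NF-kB target in lymphoid cells, had the fewest regions, 6, and the weakest promoter. The promoter region, chr15:79971075-79971412 over an exon and UTR, had a -log10 p of 16.4 in CB-6644 replicate 3 and no peak in replicates 1 and 2. In DMSO replicates 1 to 3 the values were 23.3, 26.5 and 33.1, or percentiles 6.96, 5.79 and 14.0, against 2.11 in CB-6644 replicate 3. All DMSO libraries were thus above the 1 CB-6644 library with a peak, and the region could not be fitted because peaks were missing. A further region 7.63 kb upstream, chr15:79978762-79979121, was DMSO-only with -log10 p values of 9.13, 18.6 and 18.3. The 2 regions of the locus called in all 6 libraries, 47.4 kb downstream and 46.7 kb upstream of the TSS, had log2 differences of 0.13 ± 0.10 and -0.30 ± 0.20. The 250 bases before the RefSeq start of BCL2A1 (build GRCh38.p14) are shown because this promoter was the exception among the 10.
BCL2A1 promoter, chr15:79971197-79971446, - strand: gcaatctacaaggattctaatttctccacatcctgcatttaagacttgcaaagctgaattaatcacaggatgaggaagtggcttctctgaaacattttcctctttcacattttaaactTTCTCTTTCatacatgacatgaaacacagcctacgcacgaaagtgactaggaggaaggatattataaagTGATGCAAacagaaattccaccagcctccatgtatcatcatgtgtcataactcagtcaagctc

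This promoter holds 1 interferon regulatory factor motif, found in 6.88% of the 35114 RefSeq promoters over the same 250 bases, and 1 ATF4-CEBP composite motif, found in 3.14%. No NF-kB motif in the form searched is in these letters, and 5.78% of promoters hold one. Promoters of 9 of the 10 genes, all but MCL1, were matched in RefSeq, with 11 entries. In the others a p53 motif was in that of BAK1 (5.57% of promoters), an E-box in that of BAX and 2 in one of BMF (17.5%), and an AP-1 motif in that of BBC3 (6.57%). Those of BCL2, BCL2L1, BCL2L11 and PMAIP1 held no match.

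BCL2L11, or BIM, the BH3-only protein that binds all protective members, had 3 promoter regions in a row, each called in all 6 libraries. The strongest, chr2:111120212-111121111 over an exon and UTR, stood at percentiles 84.6, 83.8 and 89.1 with CB-6644 and at 85.6, 81.0 and 67.4 with DMSO. The groups overlapped, with a log2 difference of 0.37 ± 0.24 (limma adjusted p = 0.520). The next regions, 1.58 and 2.33 kb inside the gene, had like differences of 0.33 ± 0.25 and 0.34 ± 0.31, and neither passed. Away from the promoter the 3 fitted regions were below 0, at -0.24, -0.13 and -0.02.

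An intronic region of BCL2L11 24.6 kb from the TSS, chr2:111145268-111145671, was DMSO-only. It had the highest single value among the group-only regions of the loci, with -log10 p values of 14.5, 42.2 and 59.7 in DMSO replicates 1 to 3. The short-fragment DMSO library was the lowest of the 3. No motif of those searched was in its window.
BCL2L11 +24.6 kb, DMSO-only, chr2:111145482-111145582, + strand: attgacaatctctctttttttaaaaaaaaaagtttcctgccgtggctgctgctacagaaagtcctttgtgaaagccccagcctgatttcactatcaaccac

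BBC3, or PUMA, a BH3-only protein known as a p53 target, had 4 promoter regions, of which 3 were called in all 6 libraries. The strongest, chr19:47226126-47226676 over an exon at an alternative TSS, stood at percentiles 64.3, 63.6 and 59.5 with CB-6644 and at 71.0, 58.8 and 67.1 with DMSO. The groups overlapped, with a log2 difference of 0.14 ± 0.27 (limma adjusted p = 0.826). Over the canonical TSS, chr19:47231073-47231499, percentiles were 32.8, 33.8 and 25.2 with CB-6644 and 24.8, 19.1 and 14.8 with DMSO. Every CB-6644 library was higher there, though the nearest pair differed by under 1 percentile, and the log2 difference of 0.39 ± 0.23 did not pass (adjusted p = 0.469 without and 0.203 with fragment class as a covariate). Upstream by 8.56 kb, chr19:47239655-47239996 had a log2 difference of 0.68 ± 0.30 (adjusted p = 0.350 without and 0.0443 with the covariate). Its percentiles were 21.3, 50.1 and 44.9 with CB-6644 and 37.6, 20.8 and 6.50 with DMSO, and the groups overlapped. Without CB-6644 replicate 2 its difference was 0.42.

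In 3 other BBC3 regions every DMSO library was higher. Over an exon 2.65 kb inside the gene, chr19:47228273-47228760 stood at percentiles 2.90, 17.8 and 0.747 with CB-6644 and at 32.0, 24.9 and 19.6 with DMSO. The highest CB-6644 library was the short-fragment one, and the log2 difference was -0.37 ± 0.24 (limma adjusted p = 0.523, and 0.234 with the covariate), while the long-fragment libraries gave -0.60 (adjusted p = 0.0334) and the fit without CB-6644 replicate 2 gave -0.68 (adjusted p = 0.0303). The promoter region beside it, chr19:47226924-47228056, and a region 13.1 kb upstream, chr19:47244070-47244573, had differences of -0.11 ± 0.26 and -0.10 ± 0.18. The latter passed with -log10 p in place of fold (a difference of -0.69, limma adjusted p = 0.0280).

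PMAIP1, or NOXA, the BH3-only protein that binds MCL1 and BCL2A1, had the lowest log2 differences of the 10 loci in limma. Its promoter region, chr18:59899502-59901063 over an exon and UTR, was strong in both groups, at percentiles 87.9, 93.2 and 86.4 with CB-6644 and 89.5, 88.7 and 88.8 with DMSO. The log2 difference was 0.20 ± 0.17 (limma adjusted p = 0.601). Downstream of the gene, 2 regions outside protein-coding genes had lower values with CB-6644. At chr18:59923215-59923472, 23.3 kb from the TSS, percentiles were 7.91, 5.10 and 1.25 with CB-6644 and 28.4, 25.3 and 21.2 with DMSO. The groups did not overlap, and the log2 difference was -0.83 ± 0.19, with an adjusted p of 0.0768 without and 0.0106 with fragment class as a covariate. At chr18:59950549-59950957, 50.8 kb from the TSS, percentiles were 27.4, 3.66 and 12.1 with CB-6644 and 49.9, 58.8 and 61.0 with DMSO. Here too every DMSO library was higher, with a log2 difference of -1.22 ± 0.30 (limma adjusted p = 0.0958 without and 0.00245 with the covariate). Without CB-6644 replicate 2, the lowest library at this region, the difference was -0.75 (limma adjusted p = 0.0181), and on recovered pile-up it was -0.66 (adjusted p = 0.261). In the 4 long-fragment libraries the regions gave -0.72 (adjusted p = 0.0465) and -0.83 (adjusted p = 0.0116). Their windows are shown as the sites with the lowest log2 differences, and the first holds an interferon regulatory factor motif.
PMAIP1 +23.3 kb, called in both groups, chr18:59923290-59923390, + strand: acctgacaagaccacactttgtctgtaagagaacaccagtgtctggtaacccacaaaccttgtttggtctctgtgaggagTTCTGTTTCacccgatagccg
PMAIP1 +50.8 kb, called in both groups, chr18:59950735-59950835, + strand: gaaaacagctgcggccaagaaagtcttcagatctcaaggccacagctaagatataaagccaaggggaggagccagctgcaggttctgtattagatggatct

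**Figure D4:**
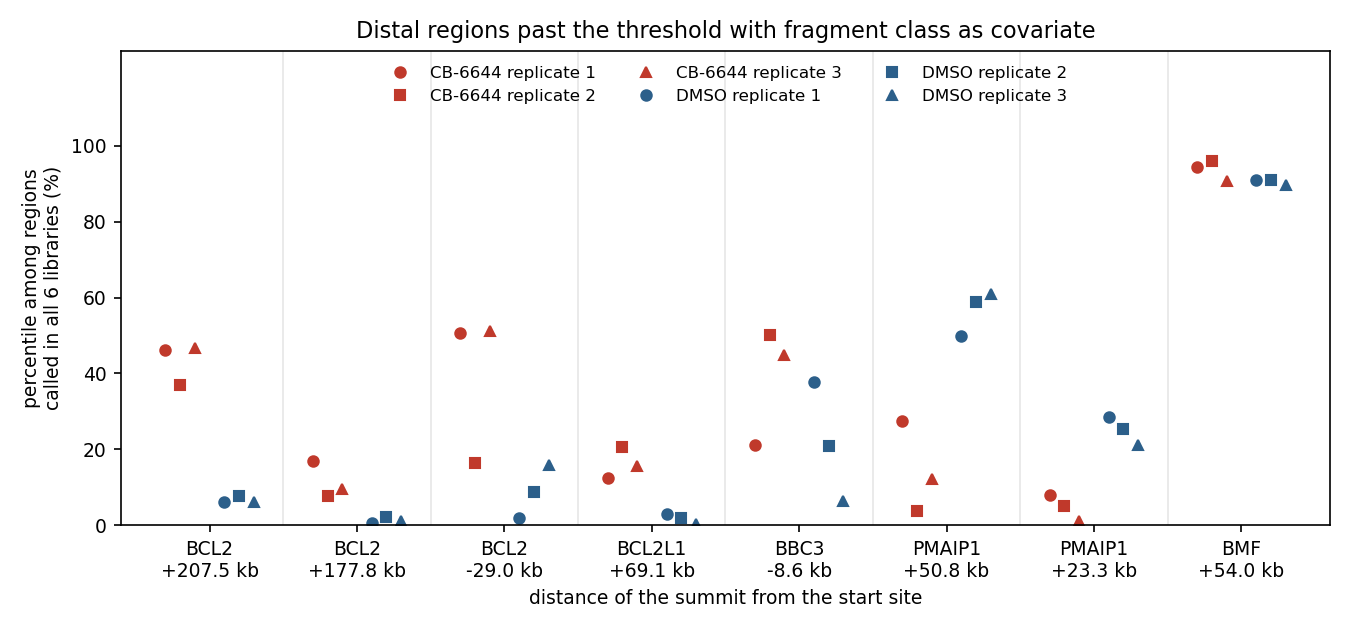
Percentile of -log10 p among the 42089 regions called in all 6 libraries (vertical axis) for the 8 regions outside the promoters of the 10 genes that passed with fragment class as a covariate, by library, with the distance of the summit from the TSS below each. CB-6644 libraries in red lie above all DMSO libraries in blue at the 3 BCL2 regions and the BCL2L1 region, and below them at both PMAIP1 regions.

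BMF, a BH3-only protein linked to loss of attachment and to the cytoskeleton, was open at its canonical promoter in every library. The region chr15:40108741-40109566 over an exon and UTR stood at percentiles 86.9, 90.6 and 85.2 with CB-6644 and at 89.6, 88.4 and 87.2 with DMSO. The groups overlapped, with a log2 difference of 0.21 ± 0.25 (limma adjusted p = 0.717). A strong region 54.0 kb downstream of the TSS, chr15:40054331-40055557, stood at 94.5, 96.0 and 90.7 with CB-6644 and at 91.0, 90.9 and 89.8 with DMSO. CB-6644 replicate 3 lay among the DMSO libraries, and the log2 difference of 0.31 ± 0.12 had an adjusted p of 0.281 without and 0.0319 with the covariate in limma. The 10 fitted regions of the locus ranged from -0.26 to 0.31.

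BAX, an effector that moves from the cytosol to mitochondria, was open at its promoter in both groups. The region chr19:48954486-48955296 over an exon and UTR stood at percentiles 82.3, 89.1 and 89.6 with CB-6644 and at 90.8, 88.8 and 78.3 with DMSO. The log2 difference was 0.05 ± 0.10 (limma adjusted p = 0.832), with overlapping groups. No region of the BAX locus was group-only, and the 5 fitted ones ranged from -0.16 to 0.27. One of them, chr19:48992994-48993945, covers the promoter of RUVBL2, which encodes a target of CB-6644, 38.6 kb downstream of the BAX TSS, and its log2 difference was 0.12 ± 0.11.

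BAK1, the effector resident in the mitochondrial membrane, had 9 regions, of which 8 were called in all 6 libraries. Its promoter region, chr6:33579787-33580583 over an exon and UTR, stood at percentiles 81.6, 90.0 and 81.1 with CB-6644 and at 84.3, 79.8 and 76.9 with DMSO. The groups overlapped, with a log2 difference of 0.13 ± 0.18 (limma adjusted p = 0.748). An intronic region 1504 bp from the TSS, chr6:33578489-33579041, had a log2 difference of 0.41 ± 0.22 with the groups apart on the percentile scale and did not pass (adjusted p = 0.431). The CB-6644-only region, chr6:33621775-33622083, lies 41.7 kb upstream of BAK1 within 1000 bp of a TSS of ITPR3, a calcium channel gene, beside the main ITPR3 promoter region, which was called in all 6 libraries. Its -log10 p values were 14.7, 11.0 and 15.6 in CB-6644 replicates 1 to 3.
BAK1 -41.7 kb, CB-6644-only, chr6:33621877-33621977, + strand: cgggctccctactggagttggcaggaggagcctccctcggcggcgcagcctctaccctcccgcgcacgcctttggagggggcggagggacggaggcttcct

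By role, the loci of the 4 protective genes held 6 of the 7 DMSO-only regions among 66 regions, those of the 4 BH3-only genes held 1 among 47 and those of the effectors held none among 17. The share over all merged regions was 4.5%, and the BCL2 locus alone held 3 of the 6. With lists cut to equal length 2 DMSO-only regions were left, both in the BCL2 locus. The median log2 difference of fitted regions was 0.10 over 42 regions of protective genes, 0.07 over 32 of BH3-only genes and 0.12 over 13 of effectors. On the percentile scale CB-6644 was higher without overlap in 6 of the 42, 1 of the 32 and 3 of the 13, against 13.3% of all. DMSO was higher without overlap in 4, 8 and 1 of them, against 13.4% of all. The roles were not tested against each other.

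The number of peaks in each locus was compared as a last measure. Summed over the 10 loci it was 110, 140 and 106 in CB-6644 replicates 1 to 3 and 138, 116 and 111 in DMSO replicates 1 to 3. The short-fragment library was highest in each group, the groups overlapped, and the means were 118.7 ± 18.6 and 121.7 ± 14.4 (SD), with p = 0.7 by an exact two-sided permutation test of the 6 libraries, where 0.1 is the smallest possible. In the BCL2 locus the counts were 20, 26 and 18 with CB-6644 and 29, 27 and 24 with DMSO (exact permutation p = 0.2), and in the BCL2A1 locus 3, 4 and 3 against 7, 4 and 5 (exact permutation p = 0.2). Per 10000 peaks of the list the 10 loci had 18.5, 19.5 and 18.1 peaks with CB-6644 and 17.5, 16.3 and 16.9 with DMSO. On that scale every CB-6644 library was higher, at the smallest possible exact permutation p of 0.1, in lists that were of unequal length.

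**Figure D5:**
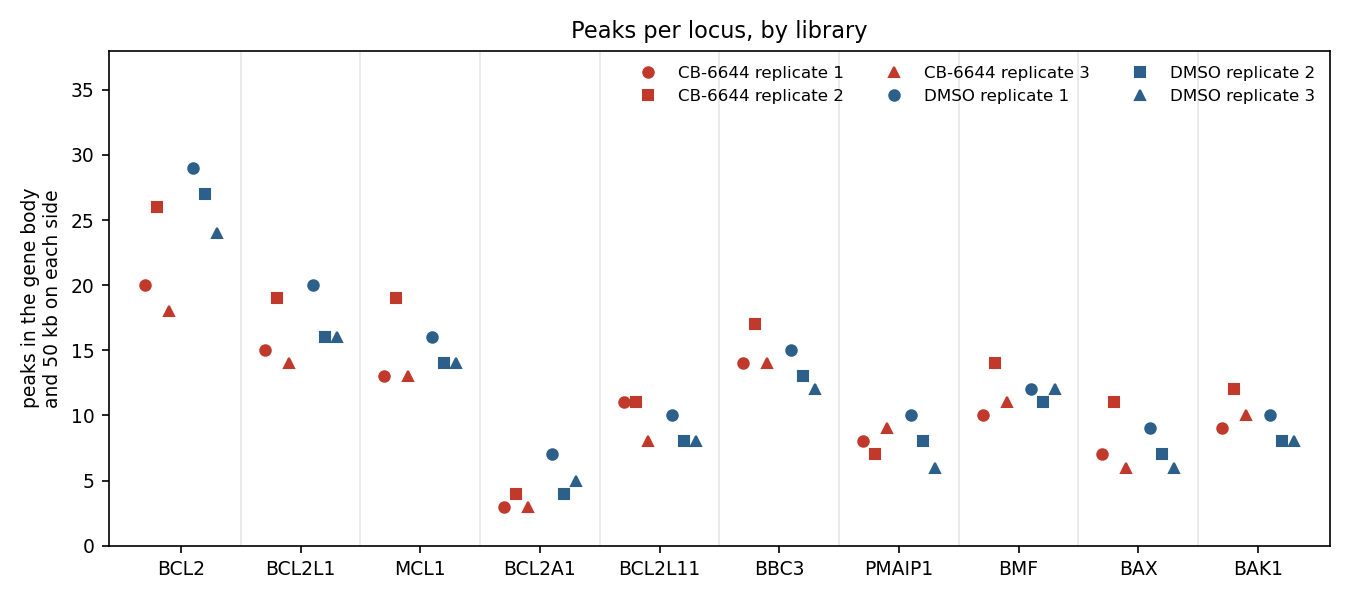
Number of peaks in the gene body and 50 kb on each side (vertical axis) for each gene and library, with CB-6644 in red and DMSO in blue. Counts of the 2 groups overlap or touch in all 10 loci, and CB-6644 replicate 2 (red squares) is the highest CB-6644 library, alone or tied, in 9 of them.

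Other genes of the pathway were read from a fixed list. Of 10 further BCL2 family genes, 7 had a promoter peak in all 6 libraries (BCL2L2, BCL2L12, BCL2L13, BCL2L14, BID, HRK and BAD), and BIK had one in 5. The share with a peak in all 6 was 66.5% over all protein-coding genes. The promoters of BCL2L10 and BOK had no peak in any library. The 7 fitted promoters had a median log2 difference of 0.14, ranging from -0.30 for BCL2L14 to 0.31 for BID, and 0 of 7 passed limma with or without the covariate. Over all fitted regions 0.321% passed as higher and 0.418% as lower without it, and 4.22% and 6.09% with it. The 1 group-only region of these loci was DMSO-only, 24.4 kb upstream of BIK, a BH3-only gene, with -log10 p values of 17.4, 34.4 and 38.9. These loci held 83 regions when summed gene by gene. Of all merged regions, 4.5% were DMSO-only and 0.586% CB-6644-only.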

How the data were processed

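The 10 genes and the lists were chosen with earlier results of these data known. The submitters' processing notes name hg38, Bowtie2 2.4.2 and MACS3 3.0, with peaks called by the authors in each library. Fold enrichment, as deposited, is a ratio of summit pile-up to local background without scaling across libraries. Deposited −log10 scores give the caller's p and q at each summit. The authors tested read counts with edgeR, and as peak lists carry none, that test was not run. Depth per library is unknown, and pile-up and background were recovered from fold and −log10 p under a Poisson model that matched 99.5% to 100% of peaks. Fragment class was inferred from the shortest peak of each list.

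Peaks outside the main chromosomes were dropped, and overlaps of 1 bp joined peaks into regions. The strongest peak of each region gave its value in a library. Regions called in all 6 libraries were quantile-normalised on log2 fold and compared with limma 3.58.1 in R 4.3.3. The settings were eBayes with trend, no block, Benjamini-Hochberg over all fitted regions and a threshold of 0.05. This fit was checked on simulated data with noise drawn independently for each library. Deviations of the real libraries were correlated, which that check did not cover. Peaks per library were compared by exact two-sided permutation. The text names all 10 genes, their strongest promoter regions, every group-only region of the loci and any region past the threshold in the main comparison, of which there was none. Regions past it in alternatives were added after their values were seen. Annotation was GENCODE release 44 and promoters of RefSeq, and Python 3.11.15 with pandas 2.3.3, numpy 2.4.6, scipy 1.17.1 and matplotlib 3.10.9 was used. Alternatives changed the peak threshold, list length, libraries, windows, normalisation, measure and covariates. Some genes of the fixed lists are not reported here.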

Additional observations from a re-analysis of the deposited data

How the results depend on the processing

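The 9 promoters with a peak in all 6 libraries stayed 9 under every alternative run. DMSO-only regions in the loci numbered 7, and 2 with lists of equal length, 1 with the 20000 top peaks, 4 where a peak had to cover 50% of the region, and 7 to 9 with a library left out. CB-6644-only regions numbered 1, and 2 in the long-fragment libraries, 5 when these were scaled to equal background, 0 with the coverage rule, 0 with no flank, 2 with a flank of 100 kb and 1 to 2 with a library left out. The scaled libraries had 5 DMSO-only regions, and a −log10 p of at least 20 was asked of them. In limma the higher and lower regions of the loci numbered 0 and 0 of 87. With fragment class as a covariate they were 7 and 2, against 1777 and 2565 of all 42089 regions. In the long-fragment libraries they were 4 and 3 of 89, against 1434 and 2070 of 47854. On −log10 p in place of fold 2 and 3 passed, against 1536 and 1696 of 42089. A flank of 100 kb gave 2 and 0 of 120, against 135 and 176. Recovered pile-up over background (chosen after seeing the data) gave 1 and 1, against 265 and 135. With a library left out the counts were 0 to 2 and 0 to 3. Both were highest without CB-6644 replicate 2, where 764 and 1132 of all 46630 passed. With any other library left out, 0 regions over the genome passed as higher and 0 to 17 as lower. The replicate block gave 0 and 0, in the loci and over all 42089 regions. Under it the mean difference in peaks of -3 had p = 0.75 by exact sign flips. Deviations from the group means correlated at -0.477, -0.332 and 0.326 for replicate numbers 1 to 3. The value was 0.572 between CB-6644 replicate 2 and DMSO replicate 1, the short-fragment libraries. As these bear different numbers, the correlations cannot tell whether replicate numbers paired the libraries. That difference in peaks was 2.67 with lists of equal length, 3 with equal background and -13.7 to 5.17 with a library left out, and per 10000 peaks the difference of 1.81 became -0.833 with the 20000 top peaks and -0.186 with no flank. Log2 differences were followed for promoters and for regions past the threshold with fragment class as a covariate. Passes in that fit were therefore fixed in advance. With the covariate or the replicate block the values equalled those of the main fit, so their direction could not change. Of 254 log2 differences under alternatives, these included, 217 kept their direction and side of the threshold and 25 passed. The 12 that changed sign, none past the threshold, were promoter values. With a library left out they ran from -0.086 to 0.18 for BCL2 (below 0 without CB-6644 replicate 2 and without DMSO replicates 2 and 3), -0.052 to 0.12 for BAX (below 0 without DMSO replicate 3), and -0.035 to 0.25 for BAK1, -0.11 to 0.35 for BBC3 and -0.020 to 0.39 for BMF (below 0 without CB-6644 replicate 2). On −log10 p they were -0.33 for BCL2, -0.13 for BBC3 and -0.045 for BMF, and on recovered pile-up -0.17 for BCL2 and -0.11 for BBC3. The cause was not tested. Without read counts, depth and peak strength cannot be separated in these lists.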

Other observations

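Genes of the death machinery downstream of the family were also read from a fixed list. The promoters of APAF1, CYCS, CASP9, XIAP, DIABLO, HTRA2, BIRC2, BIRC3 and BIRC5 had a peak in all 6 libraries, as did 66.5% of all protein-coding genes. Their log2 differences, CB-6644 minus DMSO, ran from -0.17 for BIRC5, which encodes survivin, to 0.20 for APAF1, the scaffold of the apoptosome, and 0 of these 9 passed limma with or without fragment class as a covariate. A DMSO-only region lay 68.5 kb downstream of the TSS of CASP9, the initiator caspase of the mitochondrial pathway, with −log10 p values of 18.8, 26.5 and 31.7 in DMSO replicates 1 to 3. Another lay 27.4 kb downstream of the BIRC5 TSS, with values of 20.6, 10.6 and 26.3. Of 2 CB-6644-only regions, 1 lay in the BIRC2 locus alone and 1 in the overlapping loci of BIRC2 and BIRC3, which encode inhibitors of apoptosis. The latter, at chr11:102300933-102301132, had −log10 p values of 34.6, 13.4 and 30.7 in CB-6644 replicates 1 to 3. The loci of CASP9, BIRC5, BIRC2 and BIRC3 held 5, 15, 10 and 12 regions. Of all merged regions, 4.5% were DMSO-only and 0.586% CB-6644-only. A DMSO-only region lay in the locus of 19.8% of all protein-coding genes, and a CB-6644-only region in that of 4.29%.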
